A study of Mus musculus with 10 samples.

Results

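The immunoglobulin Fc receptors were followed in epididymal white adipose tissue, the visceral fat pad beside the epididymis, of male C57BL/6J mice. The 6 genes were Fcgr1, Fcgr2b, Fcgr3, Fcgr4, Fcer1g and Fcgrt. Every probe set whose platform annotation gave exactly 1 symbol, and that symbol one of these, was taken: 11 of 45101 probe sets on the array, for 6 of 18193 named genes. The chow group (5 mice) received the CRF-1 diet and the high-fat group (5 mice) a diet with 60% fat, both for 8 weeks from 8 weeks of age. Each mouse gave 1 array, and no mouse carried a transgene or a deletion per the labels. All levels below are quantile normalized log2 intensities of a probe set. A change is the high-fat mean minus the chow mean on that log2 scale, with its standard error (SE) and an adjusted p from limma, and a gene is said to have risen or fallen where that p was under 0.05.

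Fc receptors are the proteins by which cells sense antibody. Fcgr1 (CD64), Fcgr3 (CD16) and Fcgr4 bind IgG and activate the cell; none of them signals well alone, and all pair with the gamma chain encoded by Fcer1g, whose cytoplasmic activation motif recruits the kinase Syk. Fcgr2b (CD32) binds IgG too but carries an inhibitory motif that recruits the phosphatase SHIP-1, the product of Inpp5d, so the balance of activating and inhibitory receptors sets the response of macrophages to immune complexes. Fcgrt encodes the heavy chain of the neonatal Fc receptor FcRn, which pairs with B2m, carries no such motif, and returns IgG and albumin from endosomes to the blood in endothelium and macrophages.

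In RefSeq, Fcgr2b, Fcgr4, Fcgr3 and Fcer1g lie in that order along mouse chromosome 1, Fcgr1 on chromosome 3 and Fcgrt on chromosome 7. The brightest probe set of Fcgr2b did not pass the test over all arrays. The 150 bases just before a transcript start are shown for Fcgr2b and for the 4 genes that rose together in the arrays. They are from RefSeq (GRCm38.p6), at chr3:96293970-96294119 on the minus strand for Fcgr1, chr1:171059404-171059553 on the minus strand for Fcgr3, chr1:171018776-171018925 on the plus strand for Fcgr4, chr1:171234350-171234499 on the minus strand for Fcer1g and chr1:170976072-170976221 on the minus strand for Fcgr2b. Capitals mark GAGGAA on either strand (printed as TTCCTC where it lies on the other strand), a form of the sites bound by the myeloid factor PU.1. They also mark TTCNNNGAA, the form of the sites bound by STAT factors, which reads alike on both strands.
Fcgr1: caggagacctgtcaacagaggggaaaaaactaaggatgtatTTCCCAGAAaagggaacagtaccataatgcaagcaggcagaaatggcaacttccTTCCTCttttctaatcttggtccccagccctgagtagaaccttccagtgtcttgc
Fcgr3: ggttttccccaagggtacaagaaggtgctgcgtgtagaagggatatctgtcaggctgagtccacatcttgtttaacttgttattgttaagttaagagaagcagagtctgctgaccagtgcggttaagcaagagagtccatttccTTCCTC
Fcgr4: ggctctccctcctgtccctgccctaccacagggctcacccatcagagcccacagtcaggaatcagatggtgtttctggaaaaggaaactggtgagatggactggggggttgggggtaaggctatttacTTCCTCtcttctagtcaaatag
Fcer1g: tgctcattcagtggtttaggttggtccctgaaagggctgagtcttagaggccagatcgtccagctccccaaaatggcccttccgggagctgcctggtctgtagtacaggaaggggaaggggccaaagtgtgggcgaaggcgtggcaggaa
Fcgr2b: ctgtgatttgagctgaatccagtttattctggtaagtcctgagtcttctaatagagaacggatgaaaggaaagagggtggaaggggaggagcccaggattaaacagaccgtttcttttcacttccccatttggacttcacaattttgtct

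GAGGAA occurred in these 150 bases once each in Fcgr1, Fcgr3 and Fcgr4, at 55 to 50, 6 to 1 and 22 to 17 bases before the start. It was not in the same window of Fcer1g, Fcgr2b or Fcgrt. The shorter GGAA within it was not searched for, and it does occur in the printed windows of Fcer1g and Fcgr2b. Of 27020 genes with a promoter in the table, 14.4% held GAGGAA in that window. The STAT form occurred once, in Fcgr1, at 109 to 101 bases before the start, and 4.17% of the promoters held it. These are matches of letters and no binding was measured. For Fcgr3 the table held 2 starts, and the one farther upstream was used. The RefSeq gene model of Fcgr3 reaches farther upstream still, so its window lies inside the gene and its match rests on the start used.

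The 3 activating IgG receptors and their gamma chain rose by 3.24 to 3.78 on the log2 scale in mice fed the high-fat diet. Their groups did not overlap, as for 11.5% of all genes in this direction. Of the 6 genes 4 rose and none fell, where 12.9% of all genes rose, 13.1% fell and 25.9% did either. Of all 18193 genes 0.528% to 0.956% had a larger increase than these 4 had.

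Fcgr1, the high-affinity IgG receptor, stood at 4.11, 5.15, 4.31, 4.17 and 4.40 in chow arrays 1 to 5 and at 7.13, 7.95, 8.03, 7.64 and 8.12 in high-fat arrays 1 to 5. Every high-fat array lay above every chow array, by 1.98 at the closest. Fcgr1 rose by 3.35 (SE 0.26, adjusted p = 1.28e-05), a 10.2-fold rise. Its other probe set rose by 2.31 (SE 0.40, adjusted p = 0.00235 over 45037 probe sets), also without overlap, where 9.89% of probe sets rose and 9.49% had high-fat arrays all above the chow arrays. Because Fcgr1 was dim in chow mice, the brighter probe set was also put on a log2(value + 16) scale, which damps dim values, and rose there by 2.64.

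Fcgr3, the receptor shared by macrophages, neutrophils, mast cells and natural killer cells, stood at 6.43, 6.85, 7.45, 7.36 and 7.84 on chow and at 10.15, 10.57, 10.60, 10.46 and 10.73 on the high-fat diet. Chow arrays 1 and 2 were the lowest and high-fat array 1 was the lowest of its group, still 2.31 above the highest chow array. The rise was 3.32 (SE 0.24, adjusted p = 8.25e-06), or 9.96-fold.

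Fcgr4, a mouse receptor for IgG2 subclasses, was the most even of the 6 genes among chow mice, at 4.75, 4.66, 4.46, 4.51 and 4.60. On the high-fat diet it stood at 7.18, 8.06, 8.22, 7.65 and 8.09, a wider range (SD 0.43 against 0.12, n = 5 each). It rose by 3.24 (SE 0.21, adjusted p = 4.15e-06), or 9.46-fold, and by 2.61 on the log2(value + 16) scale. The deposited chow intensities of Fcgr1 (17.4 to 37.0) and Fcgr4 (21.8 to 27.9) were near the array medians of 17.9 to 27.4 and were not tested against background, so the folds of these 2 genes are approximate.

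Fcer1g, the gamma chain, had the largest change of the 6 genes. Its levels were 6.76, 7.41, 7.58, 7.69 and 8.06 on chow and 10.87, 11.20, 11.59, 11.15 and 11.61 on the high-fat diet, a gap of 2.80 between the nearest arrays. It rose by 3.78 (SE 0.23, adjusted p = 3.05e-06), or 13.8-fold. For each of Fcgr1, Fcgr3, Fcgr4 and Fcer1g the 2-sided exact permutation p was 0.00794, the smallest that 252 arrangements allow.

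**Figure D1:**
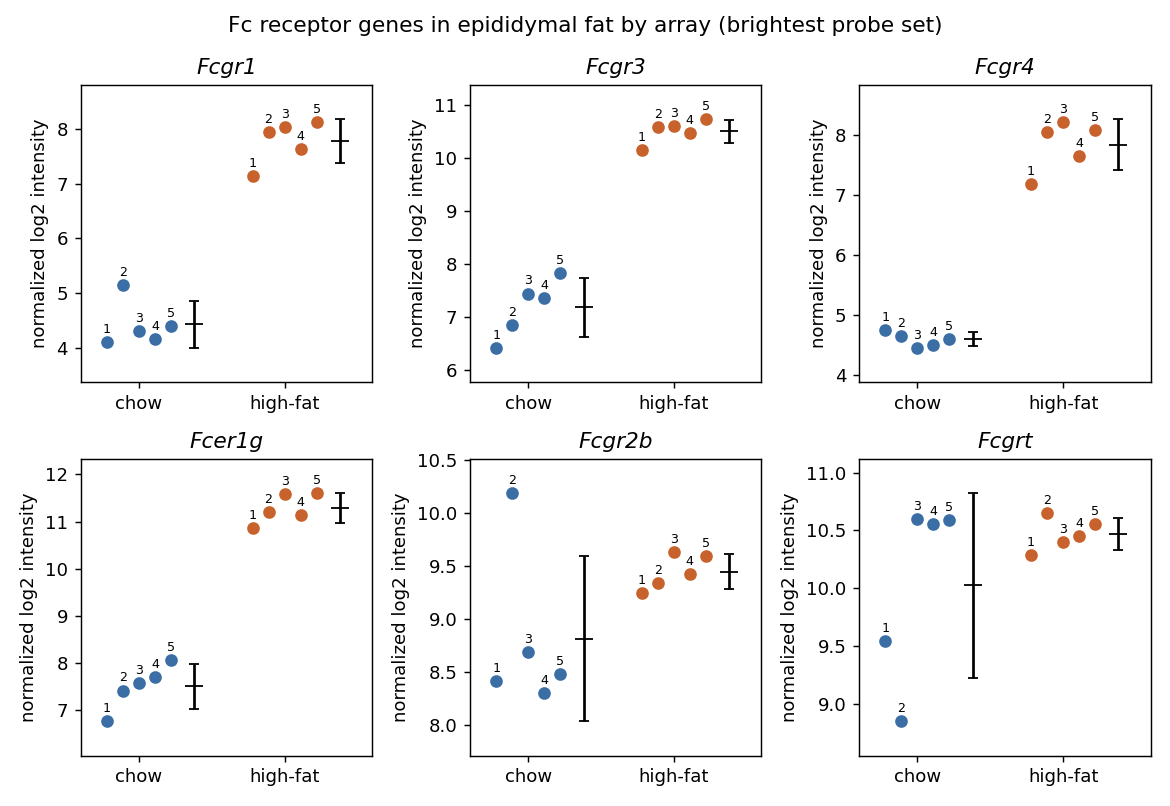
Normalized log2 intensity (y axis), by gene, of its brightest probe set in the 5 chow and 5 high-fat arrays; numbers are array numbers, and bars show the mean and SD of each group. The groups are apart for Fcgr1, Fcgr3, Fcgr4 and Fcer1g, while chow array 2 lies above all high-fat arrays for Fcgr2b and chow arrays 1 and 2 lie below all high-fat arrays for Fcgrt.

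These arrays differed in more than Fc receptors, and the RNA came from whole tissue, in which fewer cells of a type and less RNA per cell cannot be told apart. Over all genes 12.9% rose and 13.1% fell. Of 12 macrophage markers 10 rose, including Adgre1 (4.19) and Cd68 (5.17), with a list mean of 6.27 to 7.66 on chow and 9.55 to 10.12 on the high-fat diet. Cd163 (0.69) and Mertk (-0.23) did not pass. Other cells that carry these receptors also left values: of 10 neutrophil markers 3 rose and 1 fell (list mean 3.03 to 3.38 and 3.45 to 4.11), with S100a8 up by 4.83; of 10 mast cell markers 3 rose and 2 fell (3.28 to 4.28 and 3.69 to 5.27), with Cpa3 up by 3.07 and Kit at a difference of -0.32; of 9 dendritic cell markers 6 rose (3.85 to 4.91 and 5.48 to 6.18), with Flt3 up by 1.02 and Zbtb46 at -0.93; and of 9 natural killer cell markers 3 rose (2.55 to 3.40 and 3.63 to 4.16), with Ncr1 at 1.14. In the neutrophil list S100a8 had the largest increase, while S100a9 differed by 0.095 and Ltf by -4.27. The mast cell genes that fell were Gata2 (-1.34) and Hdc (-2.21). All 10 epithelial markers fell, Krt7 by 2.52 and Krt8 by 4.15 (6.51 to 10.04 and 4.05 to 4.41), as did 5 of 12 epididymis and testis markers (7.30 to 12.07 and 4.19 to 5.88), with Crisp4 down by 6.69. For the actin control, the 5′ probe set over the 3′ probe set gave 0.341 ± 0.0731 in chow arrays and 0.614 ± 0.0380 in high-fat arrays (5 each, SD), a measure of RNA length. For the Gapdh control the same ratio gave 0.726 ± 0.123 and 1.05 ± 0.0265. Neither ratio overlapped between the diets, so RNA length cannot be told apart from diet. The part of these differences in the Fc receptor changes was not tested. Without chow arrays 1 and 2, which had the lowest endothelial and adipocyte marker means of all arrays, Fcgr1, Fcgr3, Fcgr4 and Fcer1g rose by 3.52, 2.98, 3.35 and 3.52.

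Fcgr2b, the inhibitory IgG receptor, changed far less. Its brightest probe set stood at 8.42, 10.19, 8.69, 8.30 and 8.48 on chow and at 9.24, 9.35, 9.63, 9.43 and 9.60 on the high-fat diet. Of the chow arrays, 4 lay below all high-fat arrays, and chow array 2 lay above all of them. Over all 10 arrays the difference was 0.63 (SE 0.32, 95% interval -0.062 to 1.33, adjusted p = 0.170; 2-sided exact permutation p = 0.103). Without chow array 2 it was a rise of 0.98 (SE 0.11, adjusted p = 0.000199), and it also passed without chow arrays 1 and 2 (0.96, adjusted p = 0.000161), with array weights (0.94, adjusted p = 0.000810) and after median centring of the arrays (1.06, adjusted p = 0.0230).

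The probe sets of Fcgr2b did not all pass. The second brightest differed by 0.61 (SE 0.23, adjusted p = 0.0954), while the next 2 rose by 1.35 (SE 0.33, adjusted p = 0.0143) and 1.33 (SE 0.30, adjusted p = 0.00989). Chow array 2 was the highest chow array in all 4. It lay within or above the range of the high-fat arrays in each of these 4. The last probe set of the gene was at the floor in 9 of 10 arrays and bears on no comparison. Probe sets ending in _s_at or _x_at can match more than 1 transcript, and 2 of the 5 Fcgr2b probe sets were of that kind. Of all 11 probe sets 7 rose, where 9.89% of the probe sets on the array rose.

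**Figure D2:**
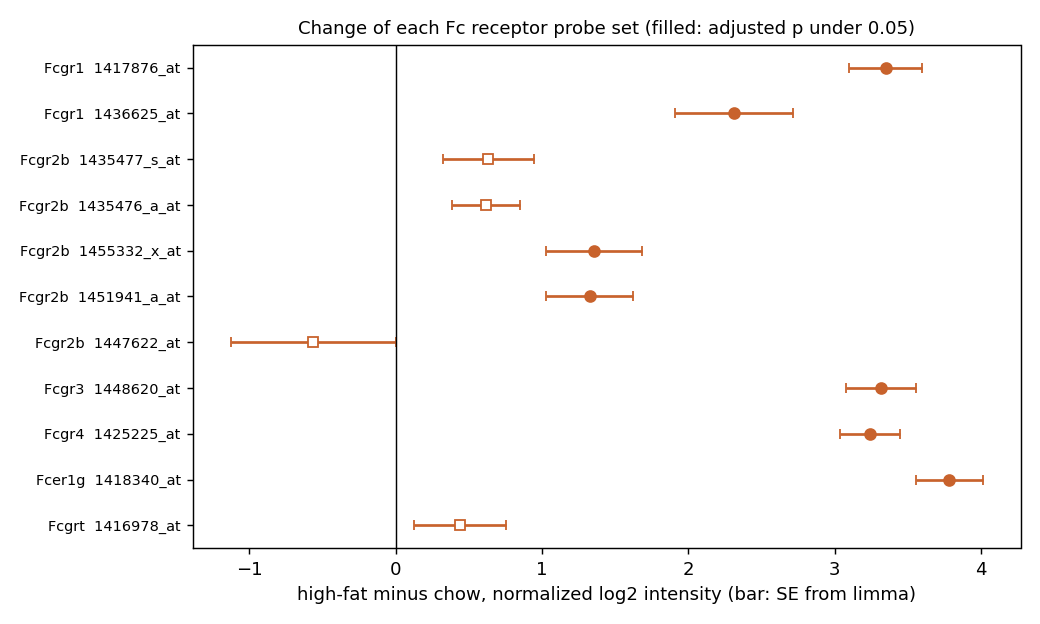
Change of each of the 11 probe sets, high-fat minus chow in normalized log2 intensity (x axis), with the SE from limma as bars. Filled symbols passed an adjusted p of 0.05; the 5 Fcgr2b probe sets run from -0.56 to 1.35, below the 2.31 to 3.78 of the Fcgr1, Fcgr3, Fcgr4 and Fcer1g probe sets.

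The activating receptors and Fcgr2b changed by unequal amounts within the same arrays. The log2 difference between each gene and Fcgr2b was taken in every array and compared between diets, which asks about unequal change and not about relative level. For Fcgr3 this difference went from -1.99, -3.34, -1.24, -0.94 and -0.64 on chow to 0.90, 1.23, 0.97, 1.03 and 1.13 on the high-fat diet. It thus moved up in all 5 high-fat arrays, also when chow array 2 is set aside. The shift against Fcgr2b was 2.71 for Fcgr1, 2.68 for Fcgr3, 2.61 for Fcgr4 and 3.15 for Fcer1g, each without overlap (2-sided exact permutation p = 0.00794, adjusted p = 0.00992 over 5 comparisons). The fifth, Fcgrt, had a difference of -0.19 (exact adjusted p = 0.881). It passed without chow array 2 (-0.83, exact adjusted p = 0.0159) and without chow arrays 1 and 2 (-1.08, exact adjusted p = 0.0179). The shifts of Fcgr1, Fcgr3, Fcgr4 and Fcer1g passed in all 17 alternatives run on them, with an exact adjusted p of at most 0.0179. These alternatives are not all separate checks. A within-array difference is the same without quantile normalization as with arrays centred on their medians. This holds for the comparison with the macrophage markers below too. Fcgr2b was taken here as its brightest probe set, an _s_at one that differed by 0.63. Its other probe sets above the floor differed by 0.61, 1.35 and 1.33, so the size of each shift depends on the probe set.

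Against the mean of the 12 macrophage markers the genes fell into different patterns. This mean rose by 2.95 on the log2 scale, from 6.92 ± 0.59 to 9.87 ± 0.23 (SD over 5 arrays). The changes of the single markers were unequal, from -0.23 for Mertk and 0.69 for Cd163 to 5.17 for Cd68. The changes of all 6 Fc receptor genes lay within that range, so the comparisons below are with the mean only. Fcgr2b lagged behind it by 2.32, its within-array difference from the mean being 0.82 to 3.92 in chow arrays and -0.53 to -0.30 in high-fat arrays. Fcgrt lagged by 2.51, and Fcer1g exceeded the macrophage mean by 0.83 (2-sided exact permutation p = 0.00794, adjusted p = 0.0159 over 6 comparisons, for each of these 3). The differences for Fcgr1 (0.40, adjusted p = 0.373), Fcgr3 (0.37, adjusted p = 0.0595) and Fcgr4 (0.29, adjusted p = 0.373) did not pass by the same exact test, although Fcgr3 passed in 9 of 17 alternatives (0.45 without quantile normalization, exact adjusted p = 0.0119). Without chow array 2 Fcgr1 (0.75) and Fcgr3 (0.45) passed as well (exact adjusted p = 0.0190 for both), and without chow arrays 1 and 2 all 6 did, with Fcgr4 at 0.77 (exact adjusted p = 0.0214).

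**Figure D3:**
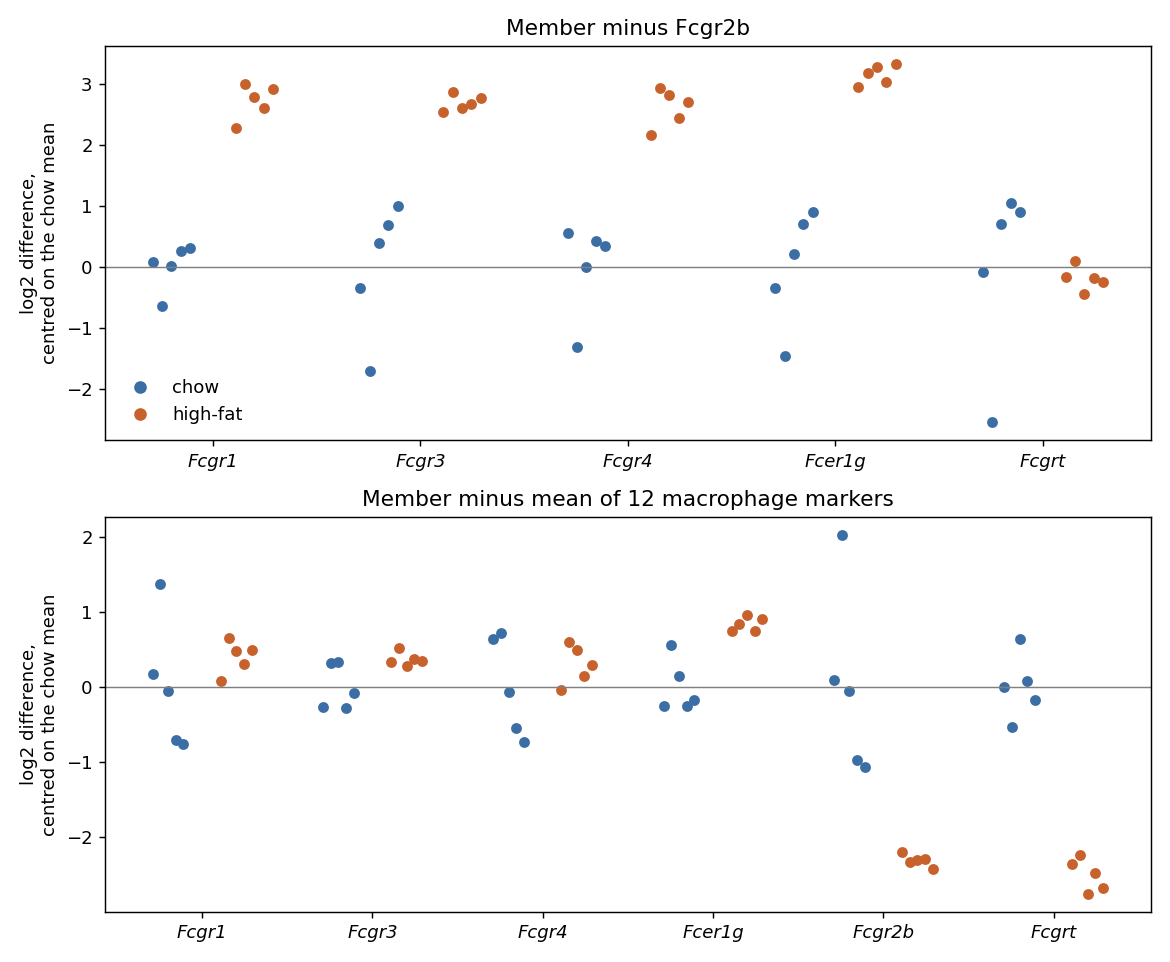
Within-array log2 difference between each gene and Fcgr2b (upper panel) or the mean of 12 macrophage markers (lower panel), y axis, each centred on its chow mean; points are arrays. Fcgr1, Fcgr3, Fcgr4 and Fcer1g sit 2.61 to 3.15 higher against Fcgr2b on the high-fat diet. Fcgr2b and Fcgrt sit 2.32 and 2.51 lower against the mean of the macrophage markers.

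Fcgrt, the FcRn heavy chain, did not pass the test. It stood at 9.54, 8.85, 10.60, 10.56 and 10.59 on chow and at 10.29, 10.65, 10.40, 10.45 and 10.55 on the high-fat diet. Chow arrays 3 to 5 lay among the high-fat arrays, and chow arrays 1 and 2 lay below them all. The difference was 0.44 (SE 0.32, 95% interval -0.26 to 1.15, adjusted p = 0.350; 2-sided exact permutation p = 0.397). It was -0.12 without chow arrays 1 and 2 (SE 0.091, adjusted p = 0.365) and 0.93 with arrays centred on their medians (adjusted p = 0.0410), a scaling that put the median change of all genes at 0.21 instead of -0.037.

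The levels of endothelial and adipocyte markers set the same chow arrays apart. The mean of 10 endothelial markers was 7.90 and 7.14 in chow arrays 1 and 2, 9.44 to 9.80 in chow arrays 3 to 5 and 8.12 to 8.65 on the high-fat diet. None of these 10 passed, with Pecam1 at -0.23 and Cdh5 at 0.19. The mean of 8 adipocyte markers was 11.03 and 10.05 in chow arrays 1 and 2, and 11.38 to 12.11 in all others. Of the 8 markers 1 rose, near the 12.9% of all genes, and Adipoq differed by 0.22. The part of these cells in the Fcgrt values was not tested. B2m, the light chain of FcRn and of MHC class I, stood at 12.65 to 13.09 on chow and at 13.16 to 13.22 on the high-fat diet. Its groups did not overlap, as for 11.5% of all genes in this direction, and its difference was 0.26 (SE 0.11, adjusted p = 0.113; 0.22, adjusted p = 0.0472, without chow arrays 1 and 2).

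**Figure D4:**
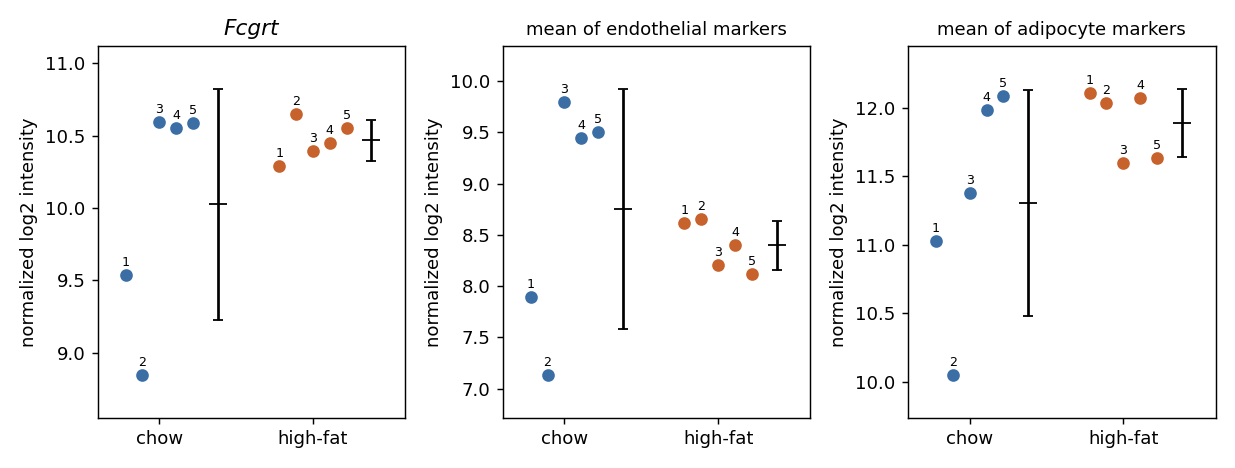
Normalized log2 intensity (y axis) of Fcgrt and the mean of 10 endothelial and of 8 adipocyte markers in each array; numbers are array numbers and bars the mean and SD of each group. Chow arrays 1 and 2 are the lowest of all arrays in each of the 3 panels.

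Of the other Fc receptors and partners, 10 genes were measured, a list near the background of all genes: only Fcrl1, a B cell receptor-like protein, rose, by 2.43 (SE 0.70, adjusted p = 0.0262), and none fell; the median difference was 0.14 against -0.037 over all genes. Fcrl1, Fcer1a, Ms4a2, Fcamr, Fcrla and Fcer2a were all dim, with chow means of 0.71 to 2.96, so a missing call among them says little. After log2(value + 16) the rise of Fcrl1 was 0.56. The call was lost in most runs that left out 1 array (adjusted p up to 0.0630). Pigr, which carries IgA and IgM across epithelia, differed by -2.72 (SE 0.95, adjusted p = 0.0561), and by -4.33 without chow arrays 1 and 2 (adjusted p = 0.000209); the epithelial markers above also had lower levels in high-fat arrays, and their part in the Pigr values was not tested. The mast cell IgE receptor chains Fcer1a (1.54, adjusted p = 0.298) and Ms4a2 (0.82, adjusted p = 0.457) did not pass.

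Among genes that carry the activating signal 14 of 17 rose and none fell, where 12.9% of all genes rose. The median of their changes was 2.46. Lat2, an adaptor of Fc receptor signalling in myeloid and mast cells, rose by 5.09 (SE 0.42, adjusted p = 1.94e-05), and Tyrobp, the adaptor akin to the gamma chain, by 4.32 (SE 0.21, adjusted p = 8.11e-07). The kinase Btk rose by 4.08 (SE 0.67) and the GTPase Rac2, which serves phagocytosis, by 3.16 (SE 0.19). On the log2(value + 16) scale Lat2, Btk and Rac2 rose by 3.63, 2.83 and 2.64. Syk, the kinase that binds the phosphorylated gamma chain, stood at 4.87, 8.31, 6.97, 6.54 and 6.89 on chow and at 9.17, 9.30, 9.53, 9.15 and 9.60 on the high-fat diet. The Syk groups did not overlap although chow arrays 1 and 2 were the lowest and the highest of their group, and it rose by 2.63 (SE 0.49, adjusted p = 0.00273). With the mean of all probe sets Lat2 rose by 2.32 (adjusted p = 0.00227) and Rac2 differed by 1.51 (adjusted p = 0.0536). With the epididymis and testis marker mean as a covariate Btk differed by 3.58 (adjusted p = 0.165). The epididymis and testis marker mean did not overlap between the diets (7.30 to 12.07 on chow, 4.19 to 5.88 on the high-fat diet). A fit with it therefore cannot tell it apart from diet. Without chow arrays 1 and 2, 14 of these genes rose and 2 fell, where 3363 and 3585 of all 18193 genes did.

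Of 10 inhibitory phosphatases and adaptors 6 rose and none fell, where 12.9% of all genes rose. The median of their changes was 0.91. Sla, which dampens receptor signalling, rose by 4.13 (SE 0.53), the adaptors Dok2 by 2.78 (SE 0.38) and Dok3 by 1.10 (SE 0.17), and Csk, the kinase that restrains Src kinases, by 1.25 (SE 0.16). Sla, dim in chow mice, rose by 2.82 after log2(value + 16) and by 2.56 with the mean of all probe sets (adjusted p = 0.000273). With the epididymis and testis marker mean as a covariate Dok2, Dok3 and Csk did not pass (adjusted p = 0.120, 0.148 and 0.0590). Inpp5d, the phosphatase that Fcgr2b recruits, stood at 5.62, 9.56, 7.73, 6.56 and 6.75 on chow and at 7.70, 7.80, 8.11, 7.79 and 8.14 on the high-fat diet. Chow array 2 was above all high-fat arrays and the other 4 chow arrays lay within or below their range. Its difference was 0.66 (SE 0.59, adjusted p = 0.453), and it rose by 1.25 without chow array 2 (adjusted p = 0.0191). With that covariate, which did not overlap between the diets, Inpp5d rose by 3.34 (adjusted p = 0.0151). Ptpn6, the phosphatase SHP-1, was highest among chow mice in arrays 1 and 2 (8.06 and 7.67, against at most 6.71 in the others), overlapped with the high-fat arrays (7.77 to 8.35) and only just passed (0.99, SE 0.33, adjusted p = 0.0499), a call kept in 9 of 23 alternatives. That probe set may match other transcripts too (suffix x_at); without such probe sets Ptpn6 rose by 2.37 (adjusted p = 0.0106), and with the mean of all probe sets by 1.68 (adjusted p = 0.0153). The kinase Lyn was not analysed here.

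**Figure D5:**
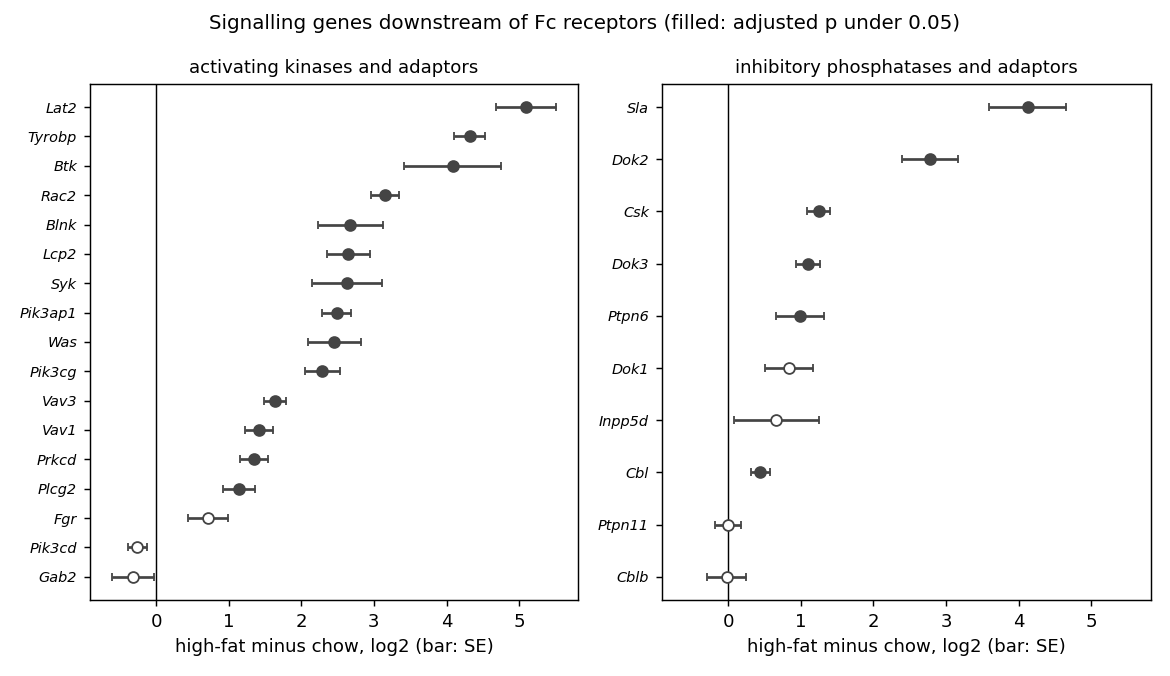
Change of 17 activating and 10 inhibitory signalling genes, high-fat minus chow on the normalized log2 scale (x axis), with the SE from limma as bars; filled symbols passed an adjusted p of 0.05. The activating genes have a median change of 2.46 and the inhibitory genes one of 0.91. Their changes overlap, from -0.32 to 5.09 and from -0.018 to 4.13, and the lists were not tested against each other.

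Of the immunoglobulin genes, 5 of the 12 listed were measured and 1 rose, where 12.9% of all genes rose. Ighm, the heavy chain of IgM, rose by 2.35 (SE 0.37, adjusted p = 0.00105), with its lowest high-fat array at 11.51 and its highest chow array at 10.57. Igha, the heavy chain of IgA, differed by 1.01 (SE 0.51, adjusted p = 0.178). Ighg3, the only IgG heavy chain measured here, differed by 0.44 (SE 0.41, adjusted p = 0.482). With the mean of all its probe sets Ighm differed by 0.54 (adjusted p = 0.169), and with the covariate above by 2.86 (adjusted p = 0.0548). Of 9 B and plasma cell markers 2 rose, with a list mean of 3.58 to 4.64 on chow and 4.41 to 5.03 on the high-fat diet, and Ms4a1 differed by 0.75.

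Along chromosome 1, of the 6 tested genes that lie between Fcgr3 and Fcer1g, 1 rose and 1 fell. Over all genes 12.9% rose and 13.1% fell. From Fcgr2b to Fcer1g RefSeq places Fcgr4 and Fcgr3 and then 7 protein-coding genes, of which 6 were tested. Their changes ran from -2.87 for Apoa2, an apolipoprotein (SE 0.92, adjusted p = 0.0413), to 0.59 for Tomm40l, a mitochondrial import protein (SE 0.16, adjusted p = 0.0190), and the other 4 did not pass. Fcgr4, Fcgr3 and Fcer1g in the same stretch rose by 3.24, 3.32 and 3.78.

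The genes with the most similar profiles were found by the root mean square difference over the 10 arrays between 2 genes' log2 values, each centred on its own mean, among the 9096 genes above the median level. Nearest to Fcer1g were Nckap1l (0.11) and Slc11a1 (0.15), a phagosomal metal transporter; nearest to Fcgr3 were Arhgap30 (0.11) and Mpeg1 (0.13), the macrophage perforin-2. Fcgr4 lay nearest to Ncf4 (0.14), a subunit of the phagocyte oxidase, and Tbxas1 (0.18), and Fcgr1 to Ms4a7 (0.13) and Adssl1 (0.21). Fcgr2b lay nearest to Lnpk (0.12) and Cln3 (0.18), and Fcgrt to Elk3 (0.090) and Sh2d3c (0.11).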

How the data were processed

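RNA of epididymal fat from 10 mice was made into biotin-labelled cRNA from each mouse's total RNA, per the labels' protocols, and hybridised to 10 arrays. The deposited table gives 1 linear intensity per probe set and array; how the authors summarised and scaled it is not given in the sources used here. Array medians ran from 17.9 to 27.4. Groups and array numbers came from the titles, and no 2 arrays held identical values.

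Intensities were raised to a floor (0.658, the 5th percentile of all values), log2 transformed and quantile normalized, and the 64 control probe sets were not tested. Of the probe sets 34958 had 1 symbol, 932 several and 9211 were not listed. The brightest probe set stood for each gene. Tests used limma 3.58.1 (R 4.3.3; lmFit, eBayes with trend, Benjamini-Hochberg over 18193 genes, or over 45037 probe sets) and 2-sided exact permutation tests. Of all genes 2338 rose and 2379 fell; without quantile normalization 2746 and 1490, and with arrays centred on their medians 4423 and 1440. In simulated data with 18193 genes, 58% of 100 changes of 1 and 82% of 100 changes of 2 were recovered, with 10 false calls among 150. Only those genes were changed, all above the median level, with 1 normal spread per gene for both diets. In the arrays 25.9% of genes passed and the spread of some genes differed between the diets. The simulated rates therefore need not hold for the arrays.

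The members and lists were chosen with earlier results of these data known. Named were all members; of each related list up to 4 genes by largest change among those that passed, and at least 2, by p where fewer passed; B2m, Syk, Lyn, Inpp5d and Ptpn6; the 2 nearest profiles of each member; and the first 2 genes of each marker list. Fcer1a, Ms4a2, Ighg3, S100a9, Ltf, Gata2, Hdc, Cd163, Mertk and the genes of the chromosome 1 stretch were added after their values were seen. Of the listed genes, those that no single-symbol probe set names were not analysed here. Alternatives were other scalings, floors, variance priors, probe set rules and filters, array weights, a replicate block, a covariate and arrays left out.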

Additional observations from a re-analysis of the deposited data

Results flagged for a closer look

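Among 22 groups of 5 arrays, 1 for each probe set and diet, 4 held an array far from the others of its group. By chance about 1 group in 20 does where no values are tied. Chow array 2 stood apart in 3 of them: at 10.19 in the brightest Fcgr2b probe set, where the other chow arrays ran from 8.30 to 8.69, at 8.34 in another Fcgr2b probe set (others 6.57 to 6.94), and at 5.15 in the brighter Fcgr1 probe set (others 4.11 to 4.40). In Fcgr3, Fcgr4 and Fcer1g chow array 2 (6.85, 4.66 and 7.41) was within the range of the other chow arrays. Chow array 3 stood apart at 2.21 in the dimmest Fcgr2b probe set, where all other arrays were at the floor. Any value above the floor would stand apart there, so the chance rate does not hold for it. The high-fat group of that probe set had no spread and could not be tested. Probe sets of the same gene are not independent either.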

How the results depend on the processing

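Fcgr1, Fcgr3, Fcgr4 and Fcer1g rose under every alternative run that kept them, with changes of 2.64 to 3.82, 2.98 to 3.73, 2.61 to 3.43 and 3.52 to 4.18; a filter on genes above the median level left Fcgr1 untested. Fcgr2b passed with arrays centred on their medians (1.06), array weights (0.94) and chow arrays 1 and 2 left out (0.96), and without single arrays its change ran from 0.51 to 0.98; the cause was not tested. Fcgrt passed with arrays centred on their medians (0.93) and turned to -0.12 with chow arrays 1 and 2 left out and to -0.21 with the epididymis and testis marker mean as a covariate. Against the macrophage markers 3 of 6 genes passed, 6 with chow arrays 1 and 2 left out and 3 to 5 without single arrays. There Fcgr1 turned to -0.042 with the mean of all probe sets and Fcgr4 to -0.014 on the log2(value + 16) scale. The shift of Fcgrt against Fcgr2b ran from -0.83 to 0.068 without single arrays (0.034 without chow array 5), passing only without chow array 2, and the dimmest Fcgr2b probe set turned to 0.41 with the covariate. With the covariate the Fcgr2b change was 1.81 (adjusted p = 0.0512).

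Array numbers did not pair the mice (correlations of same-numbered deviations -0.020 to 0.0056). With the replicate block 4 of the 6 genes rose, as without it, with Fcgr2b at 0.63 (adjusted p = 0.186), and 1898 of all genes rose and 1864 fell. Over all genes 475 rose and 191 fell with the covariate, and 3363 and 3585 without chow arrays 1 and 2. The covariate did not overlap between the diets, so fits with it cannot tell it apart from diet. No intervals for depth are given; 5 arrays a group limit the precision.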
